A study of Mus musculus with 12 samples.

Results

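The diet by fat interaction asks whether the liver answered dietary sulfur amino acid restriction (SAAR) differently when the diet was high in fat. It is the change under restriction on high fat (HF) minus the change under restriction on regular fat (RF), and it was computed for every gene from all 12 mice of the series, 3 in each of 4 groups. RF.Ctrl and HF.Ctrl mice ate a control diet that drew 18% or 60% of its energy from fat, and RF.SAAR and HF.SAAR mice ate the restricted version of the same diet, which held less methionine balanced by glutamic acid. All diets lacked cysteine, so the controls were also on cysteine-free food, and all were matched for nitrogen. The mice were male C57Bl/6J, 5 to 6 months old, single housed, fed the experimental diets for 7 days and deprived of food for 4 h before the liver was taken. Per the study, its mice also received deuterium-labelled water, first by injection and then to drink. Fat level differed together with the diet supplier, so the fat effect and the supplier cannot be told apart. The study also reports that HF.SAAR mice took in less protein and sulfur amino acid by weight than RF.SAAR mice. An effect of fat on the response and a stronger restriction on high fat therefore cannot be told apart either. Each library came from the whole liver of a separate mouse, and mice are numbered within each group in the order of their records, which pairs none of them. For a difference between whole-liver samples, fewer cells of a type and less RNA per cell cannot be told apart.

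The liver senses a shortage of amino acids through uncharged transfer RNA and the kinase GCN2, which slows translation and raises ATF4, the transcription factor of the integrated stress response (ISR). The study describes the ISR under sulfur amino acid restriction as non-canonical. At a later time than that sampled here it reported ISR activation independent of GCN2 phosphorylation. ATF4 targets include enzymes that make asparagine, serine and one-carbon units, amino acid transporters and the hormone FGF21. Cysteine is also the limiting precursor of glutathione, and NRF2, a factor that responds to oxidants and electrophiles, drives glutathione transferases and related enzymes. Dietary fat acts on the same organ by other routes: fatty acids activate PPARA and with it fatty acid oxidation, while a shift from carbohydrate to fat lowers the lipogenic genes driven by SREBP1C and ChREBP. An interaction near 0 means that the effects of restriction and of fat add up on the log scale. A positive interaction means that restriction moved the gene further up, or less far down, on high fat.

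The libraries held 16203094 to 21230092 estimated counts, and 14670 genes passed the filter on low counts. Levels below are CPM, counts divided by a library size that was scaled by the trimmed mean of M-values (TMM), and effects and interactions are on a log2 scale unless written as a fold. Hepatocyte marker genes summed to 81700 to 102700 CPM in the 12 livers. Transcripts of the exocrine pancreas were uneven. The summed acinar markers were above 1000 CPM in 5 mice, at 1776 in RF.Ctrl replicate 1, 2000 and 7708 in HF.Ctrl replicates 1 and 2, and 4392 and 19460 in HF.SAAR replicates 2 and 3, and between 43.4 and 102 in the other mice. Of the 34 acinar markers, 31 were tested, and 30 of those had a positive interaction, with a median of 4.76 and none at an unadjusted p under 0.05. Without the 5 mice above 1000 CPM the acinar median was 0.0043. Leaving these 5 mice out leaves 1 mouse in each high-fat group, which is then assumed to vary like the other groups. Values without them are given below for many of the lists and some of the genes that moved by more than 1.5 times. A gene given without such a value may still have moved.

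A single gene passed the test of the interaction, Cyp39a1, the oxysterol hydroxylase that feeds 24-hydroxycholesterol into bile acid synthesis. It rose 5.02-fold under restriction on regular fat and 11.7-fold on high fat. By edgeR's quasi-likelihood F-test, 1 gene was called with a positive and 0 with a negative interaction at an adjusted p under 0.05, which is 0.00682% of the genes tested. At an unadjusted p under 0.05 there were 462 genes, 3.15% of those tested, 269 positive (1.83%) and 193 negative (1.32%). With no interaction in any gene a share of about 0.05 would be expected, and the share seen is smaller. The 462 genes are therefore counted as a description and not as genes with an interaction. DESeq2, run on the same counts, called 12 positive and 4 negative genes, and limma-voom called 1 and 0. The DESeq2 calls with a positive interaction included Gstm3, Gstm1, Gstm2, Cyp26b1, Ugt1a9, Mthfd2, Nipal1 and Atf5 beside Cyp39a1, and those with a negative interaction were Ces1d, Phospho1, Car3 and Serpina1e. The DESeq2 calls outside the genes named by rule were Cyp17a1 and Gm10925. For comparison, restriction itself called 218 genes on regular fat (1.49%) and 289 on high fat (1.97%). These were 88 higher and 130 lower on regular fat and 148 and 141 on high fat. Scaling by library size alone moved the median of all genes by 0.16 on regular and 0.17 on high fat and turned the split into 359 higher and 66 lower and into 639 and 80. The median interaction moved by 0.00336, and changes are given relative to the TMM scaling.

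The size of interaction that 12 mice can resolve is set by its error. The standard error of the interaction had a median of 0.26 over all genes, against 0.19 for restriction on regular fat alone. The median half-width of the 95% interval was 0.57 over all genes and 0.36 over the 1244 genes with a mean of at least 100 CPM. For 9200 genes (62.7%) the whole interval lay between -1 and 1. Interactions were centred near 0, with a median of 0.00945 and 51.4% of genes positive. In the plot of the response on high fat against the response on regular fat, the cloud of genes followed the line of equal response, and Cyp39a1, Mthfd2, Nipal1, Ugt1a9 and Gsta2 stood above it in the upper right.

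**Figure D1:**
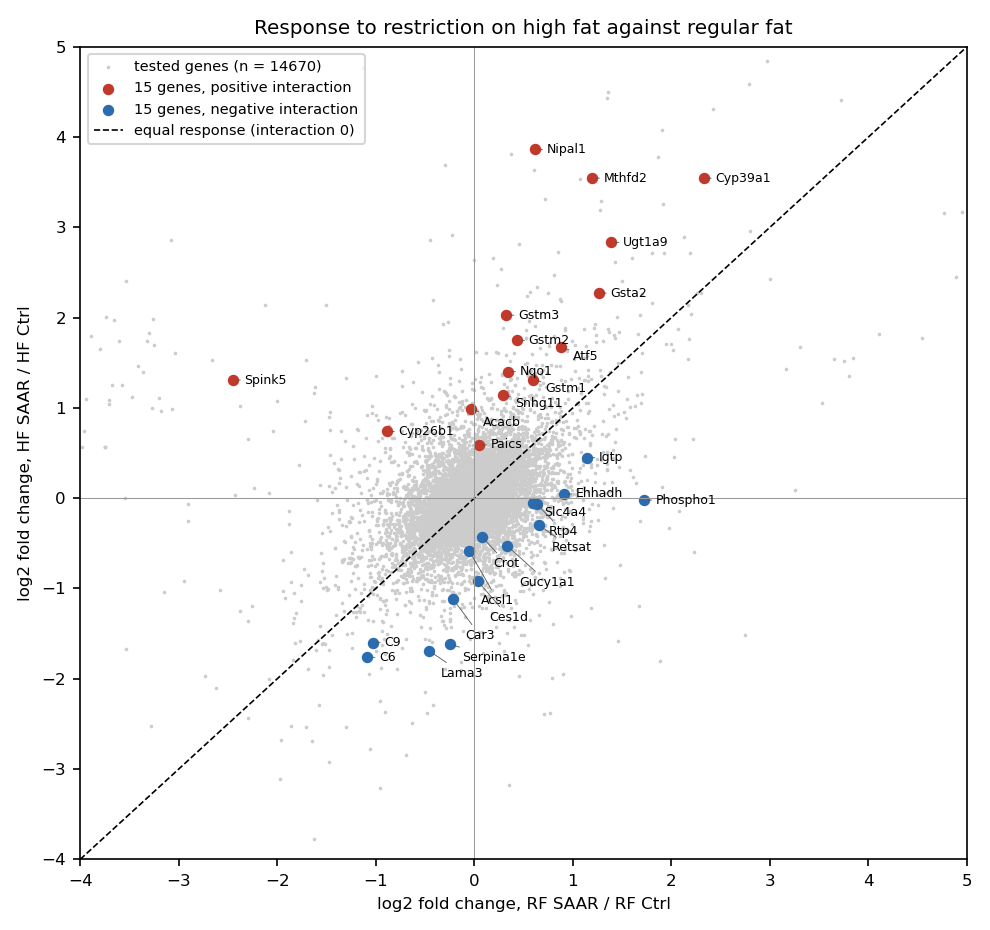
Log2 fold change under restriction on high fat (vertical axis, HF.SAAR over HF.Ctrl) against that on regular fat (horizontal axis, RF.SAAR over RF.Ctrl) for the 14670 tested genes in grey, with the 15 genes of smallest p for a positive (red) and a negative (blue) interaction named. The dashed line marks an equal response, Cyp39a1 lies at 2.33 and 3.55, and 25 genes fall outside the axes.

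Cyp39a1 (GRCm38 chr17:43667425-43751431) was at 18.2, 17.9 and 15.7 CPM in the RF.Ctrl mice, 94.02, 87.00 and 79.3 in the RF.SAAR mice, 12.3, 11.6 and 11.4 in the HF.Ctrl mice and 130.2, 142 and 139 in the HF.SAAR mice. The 4 groups did not overlap, with HF.Ctrl the lowest and HF.SAAR the highest, so that high fat went with a lower level in control mice and a higher level in restricted mice. Its interaction was 1.22 (SE 0.14, 95% interval 0.91 to 1.52, edgeR unadjusted p = 7.25e-07, adjusted p = 0.0106). The fat effect was 0.66 in restricted mice, which passed the test (edgeR adjusted p = 0.0299), and -0.56 in control mice, which did not (adjusted p = 0.182), and the test of whether 1 of these effects was the larger did not pass (adjusted p = 0.994). Over the alternatives the interaction ran from 1.12 to 1.28, with adjusted p from 3.87e-10 to 1. The call was lost with effective length offsets (adjusted p = 0.0714), without the 5 mice of high acinar transcripts (1), which leaves 1 HF.SAAR and 1 HF.Ctrl mouse, and without HF.Ctrl replicate 2 (0.0583), HF.SAAR replicate 3 (0.0613), RF.Ctrl replicate 2 (0.0613) or RF.SAAR replicate 3 (0.051). The interaction was positive in 14 of 23 tested genes of bile acid synthesis and transport, with a median of 0.12 against 0.00945 over all genes, and 0.024 without those 5 mice. Beside Cyp39a1, 2 members were at an unadjusted p under 0.05 (3.15% of all tested genes were in either direction). These were the uptake transporter Slco1a4 at 0.86 (SE 0.38) and the 12-alpha-hydroxylase Cyp8b1 at -0.70 (SE 0.32).

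Glutathione transferases and NRF2 targets leaned to a larger response on high fat. Of 37 genes on that list, 25 had a positive interaction and 9 were at an unadjusted p under 0.05, all of them positive (1.83% of all tested genes were). The list median was 0.21, and it was 0.019 without the 5 mice of high acinar transcripts, 0.11 without HF.SAAR replicate 2, 0.13 without RF.SAAR replicate 1 and 0.36 without RF.SAAR replicate 2. Gstm3, a mu-class transferase, was at 18.4, 33.1 and 28.9 CPM in the RF.Ctrl mice, 33.5, 32.9 and 34.2 in the RF.SAAR mice, 12.8, 14.7 and 10.8 in the HF.Ctrl mice and 56.5, 61.02 and 39.2 in the HF.SAAR mice. HF.Ctrl mice were the lowest and HF.SAAR mice the highest with no overlap between groups of equal diet, while the regular-fat groups overlapped each other. Gstm3 rose 4.08-fold on high fat (edgeR adjusted p = 0.000345), its change on regular fat was 1.25-fold (adjusted p = 0.562), and its interaction was 1.71 (SE 0.29, 95% interval 1.07 to 2.34, edgeR unadjusted p = 6.95e-05, adjusted p = 0.29). Without RF.Ctrl replicate 1 the Gstm3 interaction was 1.915 and was called (edgeR adjusted p = 0.0274), while 19 of 22 alternatives left it uncalled. It was 2.25 without the 5 mice of high acinar transcripts.

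Gstm1, another mu-class transferase, was at 531, 665 and 598 CPM in the RF.Ctrl mice, 953, 883 and 884 in the RF.SAAR mice, 461, 485 and 442 in the HF.Ctrl mice and 1117, 1207 and 1128 in the HF.SAAR mice. All 4 groups were separate, in the same order as for Cyp39a1. Gstm1 rose 1.52-fold on regular fat and 2.49-fold on high fat, with an interaction of 0.71 (SE 0.13, edgeR unadjusted p = 0.000109, adjusted p = 0.319). Gstm2 had an interaction of 1.32 (SE 0.27), with a mean of 116 ± 21.4 CPM (SD, n = 3) in HF.SAAR against 62.3 ± 3.23 in RF.SAAR. The mu-class genes are close copies of one another, so reads may be split among them. NAD(P)H quinone dehydrogenase Nqo1, a standard NRF2 target, was low at 2.25 to 6.97 CPM but its 4 groups were separate, and its interaction was 1.06 (SE 0.25). Ugt1a9, a glucuronosyltransferase that shares its last exons with the other Ugt1a genes, rose 2.62-fold on regular fat and 7.14-fold on high fat, with an interaction of 1.44 (SE 0.28).

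Gsta2, an alpha-class transferase, was at 18.2, 21.7 and 16.3 CPM in the RF.Ctrl mice, 33.95, 57.8 and 43.04 in the RF.SAAR mice, 18.98, 19.4 and 21.9 in the HF.Ctrl mice and 86.8, 112 and 92.5 in the HF.SAAR mice. The control groups overlapped and the HF.SAAR mice stood above all others. Gsta2 rose 2.398-fold on regular fat and 4.83-fold on high fat, and its fat effect was 1.11 in restricted mice (edgeR adjusted p = 0.0452) and 0.10 in control mice (1). The interaction was 1.01 (SE 0.25, 95% interval 0.48 to 1.54, edgeR unadjusted p = 0.00126, adjusted p = 0.999). Among P450, UGT and SULT genes of drug metabolism, 25 of 46 tested genes were positive, with a median of 0.049 (-0.049 without the 5 mice of high acinar transcripts). Cyp3a59 was at 0.97 (SE 0.32) and Cyp2a5 at 0.96 (SE 0.33). Cytochromes of these families also share sequence with neighbours.

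**Figure D2:**
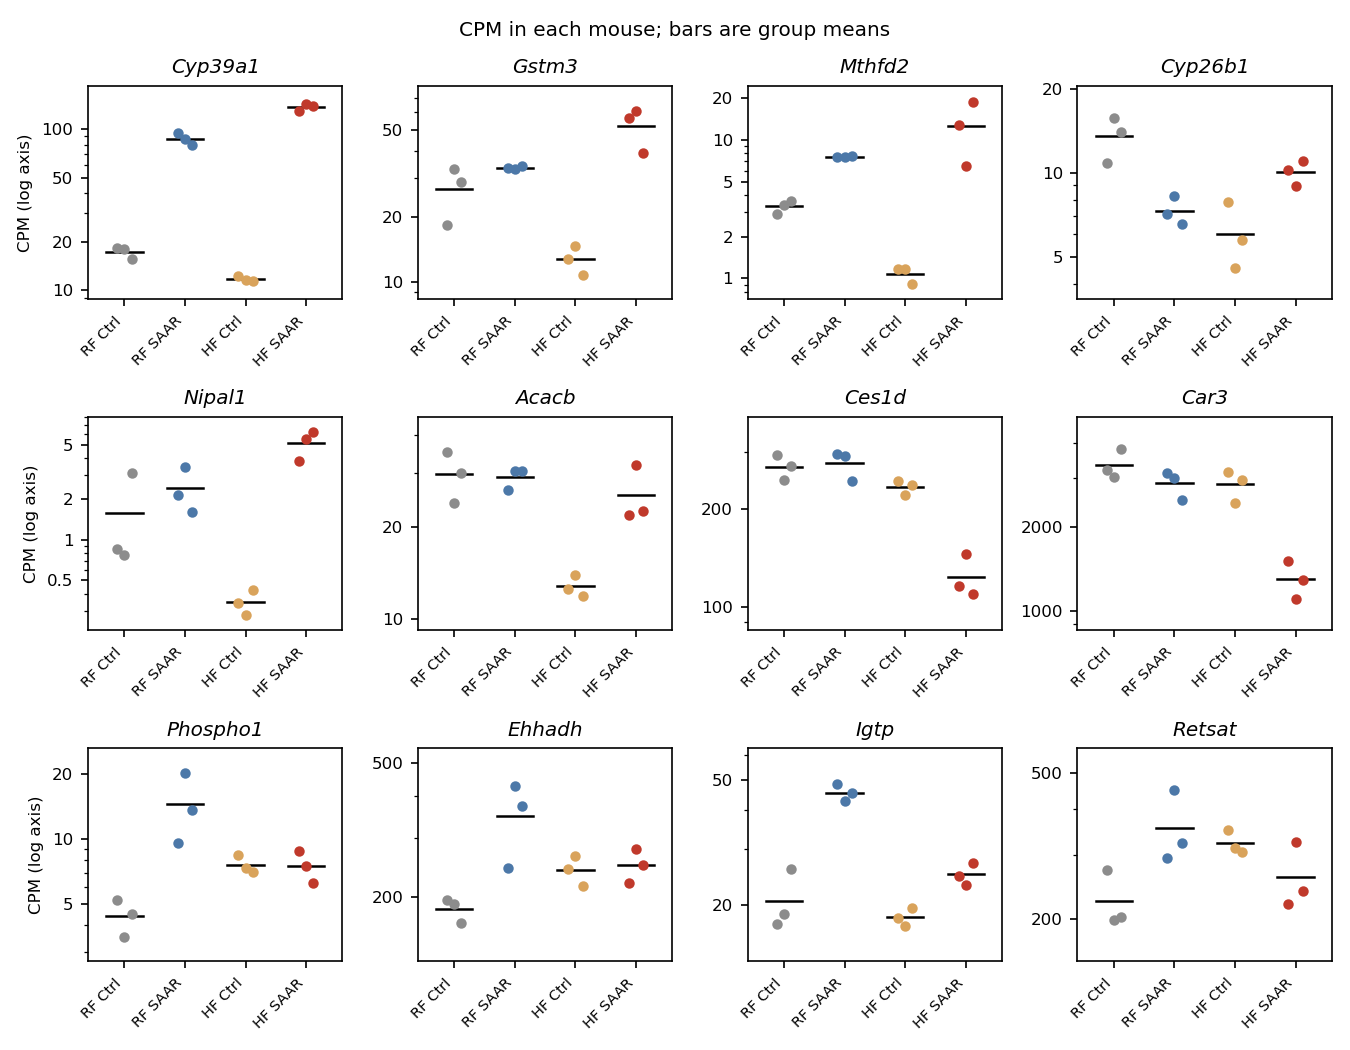
CPM in each of the 3 mice per group for 12 genes, 1 panel a gene, on log axes, with points for mice and bars for group means. By group mean, Cyp39a1, Gstm3, Mthfd2 and Nipal1 are lowest in HF.Ctrl and highest in HF.SAAR, Acacb is lowest in HF.Ctrl, Ces1d and Car3 are lowest in HF.SAAR, and Phospho1 and Igtp are highest in RF.SAAR.

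The ISR list holds 19 transcripts that the study took from published sources and looked up in these samples, so its direction is not independent evidence. All 19 were tested, and 16 had a positive interaction. Mthfd2, Atf5, Psat1 and Asns were at an unadjusted p under 0.05, all positive (1.83% of all tested genes were). The list median was 0.68, with 0.31 for restriction on regular fat and 0.97 on high fat. Summed over the list, the level was 548 to 618 CPM in the RF.Ctrl mice, 857 to 900 in the RF.SAAR mice, 469 to 534 in the HF.Ctrl mice and 942 to 1357 in the HF.SAAR mice. The median moved with single mice. It was 0.071 without HF.SAAR replicate 3, the mouse with the most acinar transcripts, 0.32 without RF.SAAR replicate 2, 0.36 without RF.Ctrl replicate 2 and 0.36 without HF.Ctrl replicate 3. It was 0.24 with acinar transcripts as a covariate and 0.53 without the 5 mice that carried them.

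Mthfd2, the mitochondrial folate enzyme that supplies one-carbon units, was at 2.92, 3.38 and 3.65 CPM in the RF.Ctrl mice, 7.46, 7.58 and 7.704 in the RF.SAAR mice, 1.16, 1.17 and 0.914 in the HF.Ctrl mice and 12.8, 6.46 and 18.8 in the HF.SAAR mice. HF.Ctrl mice were lowest without overlap, RF.SAAR mice were tightly grouped, and HF.SAAR mice spread on both sides of them. Mthfd2 rose 11.7-fold on high fat (edgeR adjusted p = 9.76e-05), was 2.29-fold on regular fat (adjusted p = 0.0692), and had an interaction of 2.35 (SE 0.45, 95% interval 1.39 to 3.31, edgeR unadjusted p = 0.000138, adjusted p = 0.336). The interaction was called without HF.SAAR replicate 2 (adjusted p = 0.0084, against 0.00324 to 1 over all alternatives) and was 1.46 with effective length offsets. Psat1, which makes phosphoserine, was at 3.09, 1.23 and 4.62 CPM in the RF.Ctrl mice, 18.3, 10.9 and 18.2 in the RF.SAAR mice, 1.91, 0.8896 and 1.04 in the HF.Ctrl mice and 27.8, 18.3 and 29.5 in the HF.SAAR mice. Restricted mice were higher on both fats, the lowest HF.SAAR mouse stood level with the highest RF.SAAR mice, and the controls overlapped. It rose 5.37-fold on regular and 19.9-fold on high fat, with an interaction of 1.89 (SE 0.61).

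Asns, which makes asparagine, was at 4.23, 6.55 and 22.8 CPM in the RF.Ctrl mice, 27.7, 30.3 and 23.4 in the RF.SAAR mice, 3.21, 6.67 and 4.02 in the HF.Ctrl mice and 48.6, 29.9 and 59.6 in the HF.SAAR mice. RF.Ctrl replicate 3 stood close to the restricted mice and far from its group, and the interaction was 0.97 without it. With all mice it was 2.01 (SE 0.81, 95% interval 0.17 to 3.86, edgeR unadjusted p = 0.0358, adjusted p = 0.999). Atf5, a transcription factor made through the same pathway, rose 1.84-fold on regular fat and 3.19-fold on high fat, with an interaction of 0.79 (SE 0.19). Other ISR genes had intervals that included 0, some of them wide. Fgf21 was at 1.49, 2.61 and 0.668 CPM in the RF.Ctrl mice, 20.04, 8.64 and 35.8 in the RF.SAAR mice, 1.16, 2.39 and 0.914 in the HF.Ctrl mice and 12.8, 38.5 and 45.5 in the HF.SAAR mice. Its fold was 13.2 on regular fat (edgeR adjusted p = 0.0533) and 21.3 on high fat (0.0241), and its interaction was 0.68 with a 95% interval of -1.76 to 3.13. Gadd45b, a stress-induced gene, rose 4.92-fold and 4.85-fold, with an interaction of -0.018 (95% interval -1.08 to 1.05). Atf4 mRNA itself was at 0.19 (-0.27 to 0.64), Ddit3 at -0.10 (-0.75 to 0.55) and Gdf15 at 0.29 (-2.52 to 3.09).

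The remaining members were Trib3 at 0.90, Atf3 at 1.14, Fos at 1.09, Slc7a11 at 0.86, Nupr1 at 0.85, Mars at 0.36, Cars at 0.35, Jun at 0.27, Cebpg at 0.11 and Nfe2l2 at -0.058, none at an unadjusted p under 0.05. Nupr1 turned negative with the acinar covariate, as did Cebpg there and without the 5 mice. Atf3, Nupr1, Trib3 and Fos had fat effects within the restricted mice of 1.04, 2.27, 1.07 and 1.77, with adjusted p of 0.819, 0.859, 0.653 and 0.934. In the wider list of serine synthesis and one-carbon genes, 19 of 23 had a positive interaction, with a median of 0.25 (0.15 without RF.SAAR replicate 3). Only Mthfd2 and Psat1 were at an unadjusted p under 0.05, both positive (1.83% of all tested genes were). Mthfd2l, a related folate enzyme, was at 0.79 (SE 0.37).

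ATF4 binds, with C/EBP partners, a composite element known as CARE, searched here as TGATGNAA on both strands of the RefSeq promoters (GRCm38.p6, 250 bases before to 50 after each start). It was found in 4.51% of 27025 genes. Of the 15 genes named for a positive interaction, 13 had a promoter in the table and 0 held the element, a count from which nothing is read at that share. Of the 19 ISR genes, 18 had a promoter and 6 held it, Asns, Atf3, Fgf21, Nupr1, Slc7a11 and, after the start, Trib3. The ISR search was added after the values were seen. The stretches before the start are shown for the ISR genes that held the element there. Their interactions were positive, from 0.68 to 2.01, and none passed the test. Of these only Asns was at an unadjusted p under 0.05. Mthfd2, Psat1 and Atf5, the other ISR genes at that threshold, held no match. Whether the element goes with the interaction was not tested. Each is 5′ to 3′ on the strand of its gene, and capitals mark the element on either strand.
Asns (- strand, chr6:7693210-7693256): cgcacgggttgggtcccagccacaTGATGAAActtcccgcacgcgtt
Atf3 (- strand, chr1:191183412-191183467): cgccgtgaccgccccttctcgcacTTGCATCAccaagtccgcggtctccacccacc
Fgf21 (- strand, chr7:45615598-45615653): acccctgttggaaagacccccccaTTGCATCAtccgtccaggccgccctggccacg
Nupr1 (- strand, chr7:126625549-126625604): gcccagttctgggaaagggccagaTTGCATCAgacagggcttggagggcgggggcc
Slc7a11 (- strand, chr3:50443629-50443703): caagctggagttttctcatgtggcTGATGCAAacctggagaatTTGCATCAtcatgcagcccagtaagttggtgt
The element began 23 bases before the start in Asns, 110 in Atf3, 139 in Fgf21 and 110 in Nupr1, and Slc7a11 held it in both orientations, 66 and 47 bases before the start.

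Lipogenic genes as a group had a more negative fat effect in control mice than in restricted mice. Of 27 genes of fatty acid synthesis and desaturation, 23 had a positive interaction, with a median of 0.28, and 22 had a negative fat effect in controls (median -0.37) while the median in restricted mice was -0.077. Acacb, the acetyl-CoA carboxylase that makes the malonyl-CoA which curbs fatty acid oxidation, was at 35.2, 23.99 and 30.1 CPM in the RF.Ctrl mice, 26.4, 30.5 and 30.5 in the RF.SAAR mice, 12.5, 13.9 and 11.9 in the HF.Ctrl mice and 21.9, 31.8 and 22.5 in the HF.SAAR mice. HF.Ctrl mice were below every other mouse, and the other 3 groups overlapped. Acacb rose 1.99-fold under restriction on high fat (edgeR adjusted p = 0.00791) and was 0.9800-fold on regular fat (adjusted p = 0.972), with an interaction of 1.02 (SE 0.23, 95% interval 0.52 to 1.52, edgeR unadjusted p = 0.000656, adjusted p = 0.74). The fat effect in controls was -1.22 (adjusted p = 0.0716) against -0.20 in restricted mice (0.987). Fads1, the delta-5 desaturase, was at 0.53 (SE 0.19) and Elovl1 at 0.47 (SE 0.20).

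Scd1, the stearoyl-CoA desaturase, is made under the control of SREBP1C and insulin. It was at 1245, 992 and 1077 CPM in the RF.Ctrl mice, 159, 114 and 401 in the RF.SAAR mice, 69.1, 90.6 and 69.2 in the HF.Ctrl mice and 30.8, 41.1 and 17.6 in the HF.SAAR mice. The 4 groups did not overlap, and from high to low they ran from RF.Ctrl through RF.SAAR and HF.Ctrl down to the HF.SAAR mice. Its restriction effect was -2.30 on regular fat and -1.36 on high fat (edgeR adjusted p = 0.0534 and 0.234), and the sum of its fat effects passed the test (adjusted p = 0.0203). The interaction was 0.94 (SE 0.64, 95% interval -0.50 to 2.38, edgeR unadjusted p = 0.174, adjusted p = 0.999). Genes of gluconeogenesis and glycolysis were positive in 29 of 34 cases with a median of 0.25 (0.15 without the 5 mice of high acinar transcripts). At an unadjusted p under 0.05 there were 4, all positive (1.83% of all tested genes were). Gpi1, the isomerase of glucose 6-phosphate, was at 0.49 (SE 0.13), the glucokinase regulator Gckr at 0.53 (SE 0.15) and Gapdh at 0.60 (SE 0.18), a gene often used to scale expression. Gpi1 rose 1.53-fold under restriction on high fat (edgeR adjusted p = 0.00304) and was 1.09-fold on regular fat (adjusted p = 0.621).

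Among the negative interactions, those of Ces1d and Car3 set the HF.SAAR mice apart from all others. Ces1d, a carboxylesterase that hydrolyses stored triglyceride, was at 294, 247 and 272 CPM in the RF.Ctrl mice, 296, 291 and 245 in the RF.SAAR mice, 244, 222 and 237 in the HF.Ctrl mice and 116, 145 and 109.8 in the HF.SAAR mice. The HF.SAAR mice were below all other mice. Ces1d fell on high fat to 0.528 of the control level (edgeR adjusted p = 0.00135) and was at 1.02 on regular fat (adjusted p = 0.952), and its interaction was -0.96 (SE 0.17, 95% interval -1.32 to -0.59, edgeR unadjusted p = 7.91e-05, adjusted p = 0.29). Car3, a carbonic anhydrase abundant in male liver and in fat, was at 3189, 3009 and 3800 CPM in the RF.Ctrl mice, 3112, 3001 and 2502 in the RF.SAAR mice, 3142, 2438 and 2930 in the HF.Ctrl mice and 1512, 1109 and 1295 in the HF.SAAR mice. Here too the HF.SAAR mice were lowest without overlap. It fell to 0.4601 on high fat (adjusted p = 0.000762), was at 0.862 on regular fat (adjusted p = 0.562), and its interaction was -0.91 (SE 0.19, 95% interval -1.32 to -0.49, edgeR unadjusted p = 0.000386, adjusted p = 0.567). Both genes differed between restricted mice of the 2 fats (-1.17 and -1.14, adjusted p = 0.00351 and 0.00915), while their fat effects in controls were -0.21 and -0.23 (adjusted p = 1 and 1). Since both fat effects of each gene have the same sign, the difference in their size is the interaction, which was not called. Car3 is also an adipocyte marker, and of 6 tested adipocyte markers 5 had a negative interaction, with a median of -0.89. With Car3 included they summed to 3021 to 3821 CPM in the RF.Ctrl mice, 2577 to 3126 in the RF.SAAR mice, 2475 to 3156 in the HF.Ctrl mice and 1133 to 1536 in the HF.SAAR mice. Nearly all of each sum is Car3, so the sums repeat its level and do not show the other markers. The median interaction of the markers was 0.22 without RF.SAAR replicate 3 and -0.35 without the 5 mice of high acinar transcripts. Plin1 had an interaction of -0.87 and Cfd of -1.26, with at most 3.49 and 10.3 CPM in any mouse. The part of these markers in the result for Car3 was not tested.

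Lipid droplet and lipolysis genes had a negative interaction in 18 of 24, with a median of -0.25, and those of fatty acid oxidation and PPARA targets in 39 of 45, with a median of -0.22. Without the 5 mice of high acinar transcripts these medians were -0.38 and -0.37. The lipid droplet median was -0.15 without HF.SAAR replicate 1, -0.15 without RF.Ctrl replicate 3 and -0.12 without RF.SAAR replicate 2. At an unadjusted p under 0.05 the oxidation list held 5 negative genes (1.32% of all tested genes) and 1 positive, the coactivator Ppargc1a at 0.80 (SE 0.32). The median fat effect of the oxidation list was 0.20 in controls and -0.019 in restricted mice. Ehhadh, the peroxisomal bifunctional enzyme and a PPARA target, was at 196, 190.4 and 167 CPM in the RF.Ctrl mice, 243, 427 and 372 in the RF.SAAR mice, 242, 265 and 216 in the HF.Ctrl mice and 220.5, 278 and 248 in the HF.SAAR mice. RF.Ctrl mice were the lowest without overlap, and the other groups overlapped. Ehhadh rose 1.88-fold on regular fat (edgeR adjusted p = 0.0185) and was 1.03-fold on high fat (adjusted p = 0.958), with an interaction of -0.86 (SE 0.24, 95% interval -1.39 to -0.34, edgeR unadjusted p = 0.00333, adjusted p = 0.999). Acsl1, which activates long-chain fatty acids, was at -0.53 (SE 0.15), and Crot, the peroxisomal carnitine octanoyltransferase, at -0.50 (SE 0.14). For both, HF.SAAR mice lay below HF.Ctrl mice without overlap while the regular-fat groups overlapped. Retsat, a retinol saturase, was at -0.96 (SE 0.26), with a mean of 225 ± 41.3 CPM in RF.Ctrl, 356 ± 83.7 in RF.SAAR, 322 ± 23.99 in HF.Ctrl and 261 ± 55.4 in HF.SAAR (SD, n = 3 each).

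Interferon-stimulated genes responded to restriction with larger median changes on regular than on high fat. Of 46, 37 had a negative interaction, with a median of -0.29, and the median restriction effect was 0.58 on regular and 0.18 on high fat. Restriction called 8 of them higher on regular fat (0.6% of all genes) and 2 on high fat (1.01%). Summed over the list the level was 1120 to 1407 CPM in the RF.Ctrl mice, 1441 to 1804 in the RF.SAAR mice, 1228 to 1256 in the HF.Ctrl mice and 1280 to 1543 in the HF.SAAR mice, so the restricted groups overlapped. Igtp, an interferon-gamma-induced GTPase, was at 17.3, 18.6 and 25.9 CPM in the RF.Ctrl mice, 48.6, 42.8 and 45.2 in the RF.SAAR mice, 18.2, 17.1 and 19.6 in the HF.Ctrl mice and 24.6, 23.1 and 27.1 in the HF.SAAR mice. RF.SAAR mice were above all others, and HF.SAAR mice were below them and above HF.Ctrl. It rose 2.21-fold on regular fat (edgeR adjusted p = 0.00173), was 1.36-fold on high fat (adjusted p = 0.142), and its interaction was -0.70 (SE 0.20, 95% interval -1.12 to -0.28, edgeR unadjusted p = 0.00323, adjusted p = 0.999). Among restricted mice its fat effect was -0.87 (adjusted p = 0.0452). The receptor transport protein Rtp4 was at -0.70 (SE 0.19), or -0.43 without the 5 mice of high acinar transcripts, and the GTPase Irgm1 at -0.56 (SE 0.17). The list median was -0.14 without RF.Ctrl replicate 1, -0.44 without RF.Ctrl replicate 3 and -0.45 without HF.SAAR replicate 3.

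Genes under growth hormone control and male-biased liver genes had mostly negative interactions. Of 31 tested, 24 had a negative interaction, with a median of -0.34. At an unadjusted p under 0.05 there were 7, all negative (1.32% of all tested genes were). Restriction called 7 of them lower on regular fat (0.886% of all genes) and 14 on high fat (0.961%). C6, a terminal complement component with male-biased expression, was at 310.1, 249 and 261 CPM in the RF.Ctrl mice, 108, 122 and 156 in the RF.SAAR mice, 268, 325 and 273 in the HF.Ctrl mice and 86.05, 84.8 and 83.9 in the HF.SAAR mice. Restricted mice were lower on both fats, and HF.SAAR mice were below RF.SAAR mice without overlap. C6 fell to 0.471 of the control level on regular fat and 0.294 on high fat, with an interaction of -0.68 (SE 0.19, 95% interval -1.09 to -0.26, edgeR unadjusted p = 0.00349, adjusted p = 0.999). Selenbp2, a selenium-binding protein that shares sequence with Selenbp1, fell to 0.254 and 0.115, with an interaction of -1.14 (SE 0.37). Serpina1e, one of several near-identical alpha-1 antitrypsin genes, was at 6998, 6559 and 10270 CPM in the RF.Ctrl mice, 8031, 5140 and 6920 in the RF.SAAR mice, 8831, 9741 and 5442 in the HF.Ctrl mice and 3316, 2383 and 2121 in the HF.SAAR mice. HF.SAAR mice were below all others. It fell to 0.326 on high fat (edgeR adjusted p = 0.0158), was at 0.843 on regular fat (adjusted p = 0.793), and its interaction was -1.37 (SE 0.38), or -0.41 without the 5 mice of high acinar transcripts. The list median was -0.20 under DESeq2 and -0.22 without RF.SAAR replicate 2.

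C9, another terminal complement component, fell to 0.488 on regular fat and 0.3298 on high fat, with an interaction of -0.57 (SE 0.16). The complement and coagulation list as a whole did not share this sign, as 30 of 41 were positive with a median of 0.091. Phospho1, a phosphatase of phosphocholine and phosphoethanolamine, was at 5.21, 3.53 and 4.497 CPM in the RF.Ctrl mice, 9.59, 20.4 and 13.7 in the RF.SAAR mice, 8.46, 7.39 and 7.07 in the HF.Ctrl mice and 8.85, 7.49 and 6.26 in the HF.SAAR mice. RF.SAAR mice stood above all others, and the high-fat groups overlapped. Phospho1 rose 3.303-fold on regular fat (edgeR adjusted p = 0.00475), was 0.986-fold on high fat (adjusted p = 0.988), and its interaction was -1.75 (SE 0.35, 95% interval -2.49 to -0.99, edgeR unadjusted p = 0.000216, adjusted p = 0.422). Slc4a4, a bicarbonate cotransporter, was at -0.65 (SE 0.17), and rose 1.51-fold on regular fat alone by the test (adjusted p = 0.029 and 0.911). Lama3, a laminin chain at 5.204 CPM on average, was at -1.23 (SE 0.28) and fell to 0.3099 on high fat (adjusted p = 0.000624) with 0.726 on regular fat (0.296).

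Messages of cytosolic ribosomal proteins leaned the same way almost without exception, by small amounts. The interaction was positive in 78 of 79 genes, with a median of 0.34 and quartiles of 0.28 and 0.41. At an unadjusted p under 0.05 there were 10, all positive (1.83% of all tested genes were). The median restriction effect was 0.053 on regular and 0.41 on high fat, and the median fat effect was 0.24 in restricted and -0.097 in control mice. The summed level was 14870 to 16100 CPM in the RF.Ctrl mice, 15170 to 18520 in the RF.SAAR mice, 11250 to 17400 in the HF.Ctrl mice and 17560 to 22050 in the HF.SAAR mice, and HF.Ctrl replicate 3 was the lowest of all. These genes vary together from mouse to mouse, and the median was 0.18 without HF.Ctrl replicate 3, 0.21 without HF.SAAR replicate 2 and 0.55 without the 5 mice of high acinar transcripts. Restriction called 0 of them on regular fat, where it called 1.49% of all genes. On high fat it called 4, all higher (1.01% of all genes were called higher). The smallest p values belonged to Rpl36a at 0.56 (SE 0.20), Rpl10a at 0.44 (SE 0.17) and Rps4x at 0.35 (SE 0.14). Many ribosomal protein genes have processed pseudogenes that can share their reads.

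Sorted by how the response differed, the 462 genes at an unadjusted p under 0.05 comprised 104 with a larger response on high fat in the same direction, 57 with a smaller one and 301 with restriction effects of different sign by value. Choosing genes by a large difference favours effects of different sign, so these shares are a description. Different signs with both effects at an unadjusted p under 0.05 were seen in 4 genes, Cyp26b1, Gucy1a1, Gstm6 and Gm2673, named here after their values were seen. Cyp26b1, which degrades retinoic acid, was at 10.8, 15.8 and 13.98 CPM in the RF.Ctrl mice, 7.09, 8.27 and 6.52 in the RF.SAAR mice, 7.85, 4.56 and 5.73 in the HF.Ctrl mice and 10.2, 8.94 and 10.97 in the HF.SAAR mice. Restriction lowered it on regular fat without overlap (fold 0.539, edgeR adjusted p = 0.0404), and on high fat the restricted mice were above their controls without overlap (fold 1.67, adjusted p = 0.0879). The interaction was 1.63 (SE 0.28, 95% interval 1.02 to 2.23, edgeR unadjusted p = 5.41e-05, adjusted p = 0.29). Gucy1a1, a subunit of soluble guanylate cyclase, went from 0.34 on regular fat to -0.53 on high fat, an interaction of -0.87 that was -0.51 without the 5 mice of high acinar transcripts, and Gstm6 from -0.37 to 0.30. Gm2673 was low, at a mean of 0.335 CPM.

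Nipal1, a magnesium transporter homologue, was at 0.858, 0.767 and 3.099 CPM in the RF.Ctrl mice, 2.13, 3.45 and 1.59 in the RF.SAAR mice, 0.341, 0.278 and 0.427 in the HF.Ctrl mice and 3.81, 5.48 and 6.17 in the HF.SAAR mice. RF.Ctrl replicate 3 was far above its group, HF.Ctrl mice were the lowest and HF.SAAR mice the highest. Nipal1 rose 14.6-fold on high fat (edgeR adjusted p = 0.00279), was 1.53-fold on regular fat (adjusted p = 0.655), and its interaction was 3.25 (SE 0.73, 95% interval 1.67 to 4.83, edgeR unadjusted p = 0.000642, adjusted p = 0.74). Spink5, a protease inhibitor at a mean of 1.05 CPM, had an interaction of 3.76 (SE 0.97), with RF.Ctrl replicate 3 at 5.47 CPM and every other mouse at 1.07 or less. It was 2.40 without that mouse. Paics, an enzyme of purine synthesis, rose 1.51-fold on high fat (adjusted p = 0.00696) and was 1.03-fold on regular fat (adjusted p = 0.92), and Snhg11, a small nucleolar RNA host gene, had an interaction of 0.85 (SE 0.22).

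Which groups made the difference was read from the fat effect within each diet, since the interaction equals the fat effect in restricted mice minus that in controls. High fat called 7 genes in restricted mice (0.0477% of those tested), Cyp39a1, Gsta2 and Rdh9 higher and Ces1d, Car3, Igtp and Ces1e lower, and 0 in control mice. At an unadjusted p under 0.05 there were 820 genes (5.59%) in restricted mice and 527 genes (3.59%) in controls, where DESeq2 called 5 higher and 26 lower. Of the 462 genes at an unadjusted p under 0.05 for the interaction, the fat effect was at least 2 times larger in restricted mice for 158, at least 2 times larger in controls for 109 and between those for 195. Over all tested genes the numbers were 4924, 3944 and 5802. The sum of both fat effects tests which is larger only where their signs are opposite, as they were for 403 of the 462. Among these the sum was at an unadjusted p under 0.05 in favour of restricted mice for 22 and of controls for 7, and 0 passed at an adjusted p under 0.05. For the other 59 the difference in size is the interaction itself. Over all genes of either kind the sum was at an unadjusted p under 0.05 in 5.84%. At an adjusted p under 0.05 (0.0409% of all genes) the sum called 4 of the 462, each with fat effects of the same sign, so that it gives their shared fat effect and no larger side. These were Ces1d, Car3, the carboxylesterase Ces1e and the retinol dehydrogenase Rdh9, of which Ces1e and Rdh9 were chosen after their values were seen. Ces1e had fat effects of -0.72 in restricted and -0.39 in control mice, and Rdh9 of 0.82 and 0.27.

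The named genes fell into 3 patterns by value. Among the 15 with a positive interaction, fat effects had opposite signs and sizes within 2 times of each other in 9, among them Cyp39a1, Gstm1, Gstm3, Ugt1a9, Nqo1 and Atf5, larger in controls in 4, Acacb, Cyp26b1, Mthfd2 and Spink5, and larger in restricted mice in 2, Gsta2 and Gstm2. Among the 15 with a negative interaction, 8 were larger in restricted mice, Ces1d, Car3, Lama3, Gucy1a1, Rtp4, Igtp, C6 and Serpina1e, and 7 were on both sides. The control side was the larger in 0 of the negative genes. In the plot of fat effects by gene, the lines of Acacb, Gsta2, Ces1d, Car3 and Igtp lie on 1 side of 0 and the rest cross it.

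**Figure D3:**
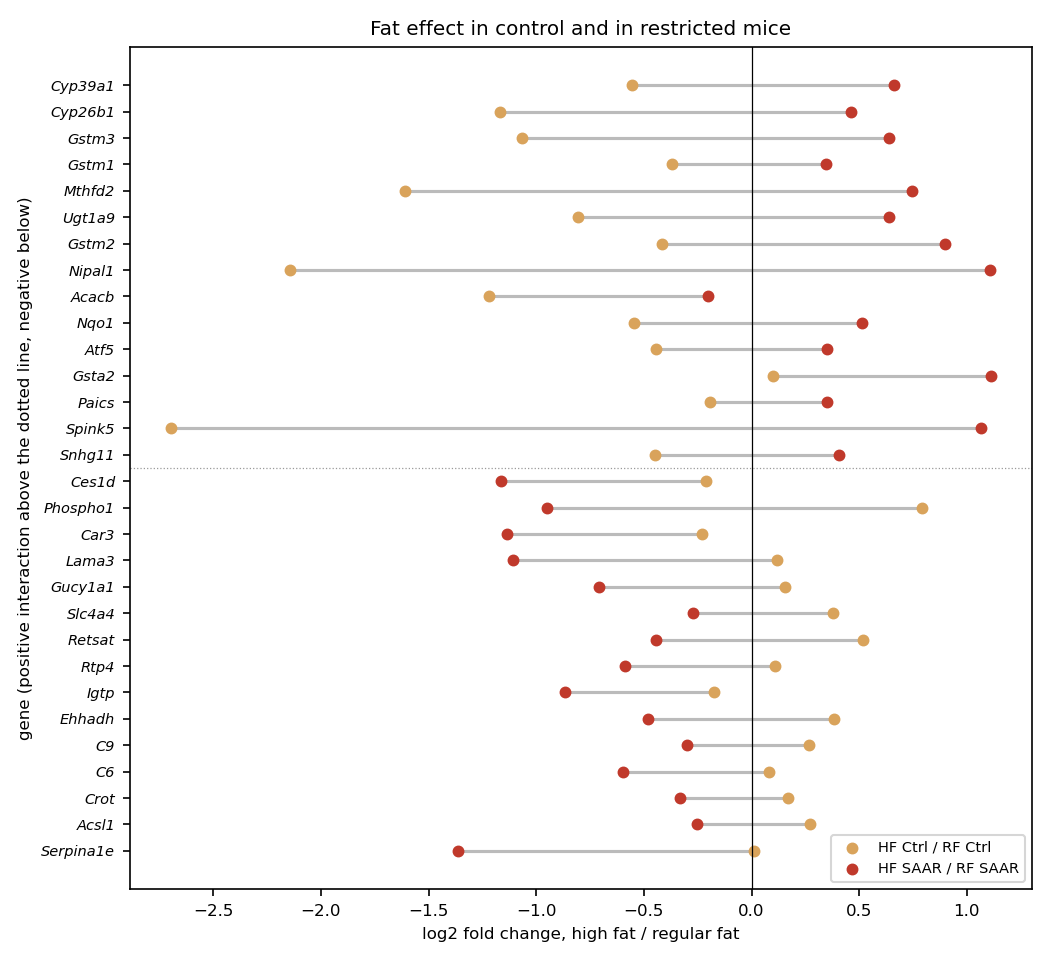
Log2 fold change of high over regular fat in control mice (ochre) and in restricted mice (red) for the 30 genes of smallest interaction p, positive above the dotted line and negative below, joined by a line whose length is the interaction. Acacb sits at -1.22 in controls and -0.20 in restricted mice, and Ces1d at -0.21 and -1.17.

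Genes that answered restriction overall were next asked for a larger answer on high fat. The mean of both restriction effects, which a balanced design estimates apart from the interaction, called 1015 genes (6.92% of those tested), 472 higher and 543 lower in restricted mice (2175 and 274 with library size alone). The effect went further in that direction on high fat in 515 of them (50.7%). That share ran from 45.6% without RF.Ctrl replicate 1 to 59.6% without HF.Ctrl replicate 2 over the ways of leaving out 1 mouse, and it was 75.6% of the genes called without the 5 mice of high acinar transcripts. With all mice the median size of the effect was 0.48 on regular and 0.48 on high fat. The shares by direction are given next. Of genes higher in restricted mice, 281 (59.5%) were larger on high fat, with medians of 0.44 and 0.50. Of genes lower in restricted mice, 234 (43.1%) were, with medians of 0.50 and 0.47. Genes vary together and no test was made of these shares. An interaction at an unadjusted p under 0.05 was seen in 113 of the 1015 (11.1%), against 3.15% of all genes, and 84 of those were larger on high fat. Both tests use the same estimate of spread for a gene. Choosing genes by the first therefore favours a small p in the second, and nothing is read from the higher share.

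The 6 genes with the smallest p for the mean restriction effect were Cyp39a1, Tfrc, C9, C6, Gstm1 and Gsta2, and all but 1 of them are among the genes named above for the interaction. Tfrc, the transferrin receptor, was the exception. It was at 13.9, 12.5 and 11.9 CPM in the RF.Ctrl mice, 41.04, 41.04 and 43.04 in the RF.SAAR mice, 11.9, 13.6 and 11.6 in the HF.Ctrl mice and 43.6, 34.6 and 34.8 in the HF.SAAR mice. Restricted mice were higher on both fats, and neither pair of equal diet was separated by fat. Tfrc rose 3.27-fold on regular and 3.04-fold on high fat, and its interaction was -0.10 with a 95% interval of -0.46 to 0.25. In the plot of intervals, Tfrc and Scd1 cross 0 and Scd1 spans from -0.50 to 2.38.

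**Figure D4:**
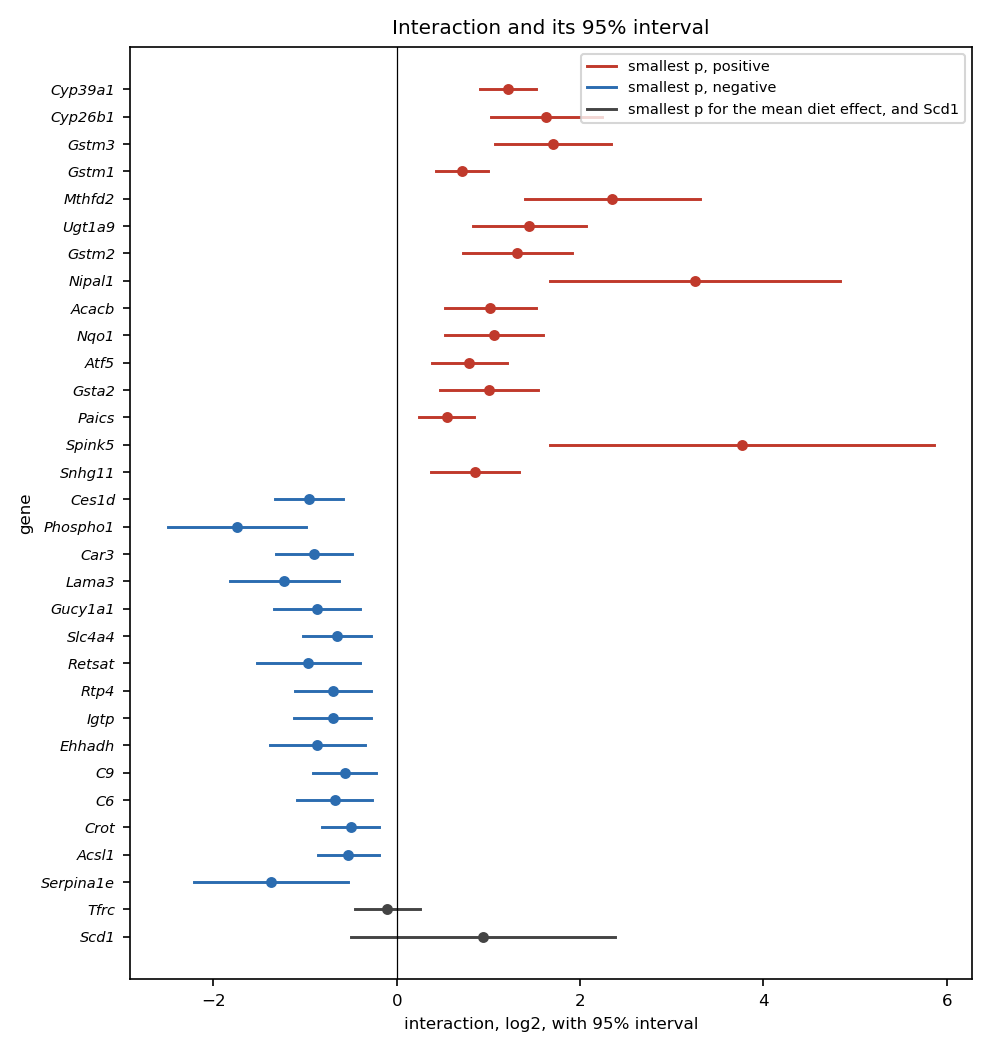
Interaction on a log2 scale with its 95% interval for the genes of smallest interaction p (red positive, blue negative), and in grey Tfrc, from the genes with the smallest p for the mean restriction effect, and Scd1. Cyp39a1 has one of the narrow intervals, 0.91 to 1.52, and Spink5 the widest of the 30, 1.67 to 5.86.

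Seen by list, medians ran from -0.34 for the growth hormone and sex-biased genes to 0.68 for the ISR, around 0.00945 for all genes with quartiles of -0.16 and 0.18. The lists of ISR, ribosomal protein, lipogenic, one-carbon and glycolytic genes lay at the positive end, and those of fatty acid oxidation, lipid droplets, interferon response and growth hormone at the negative end. Genes of a list vary together and some belong to several lists, so the medians are a description.

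**Figure D5:**
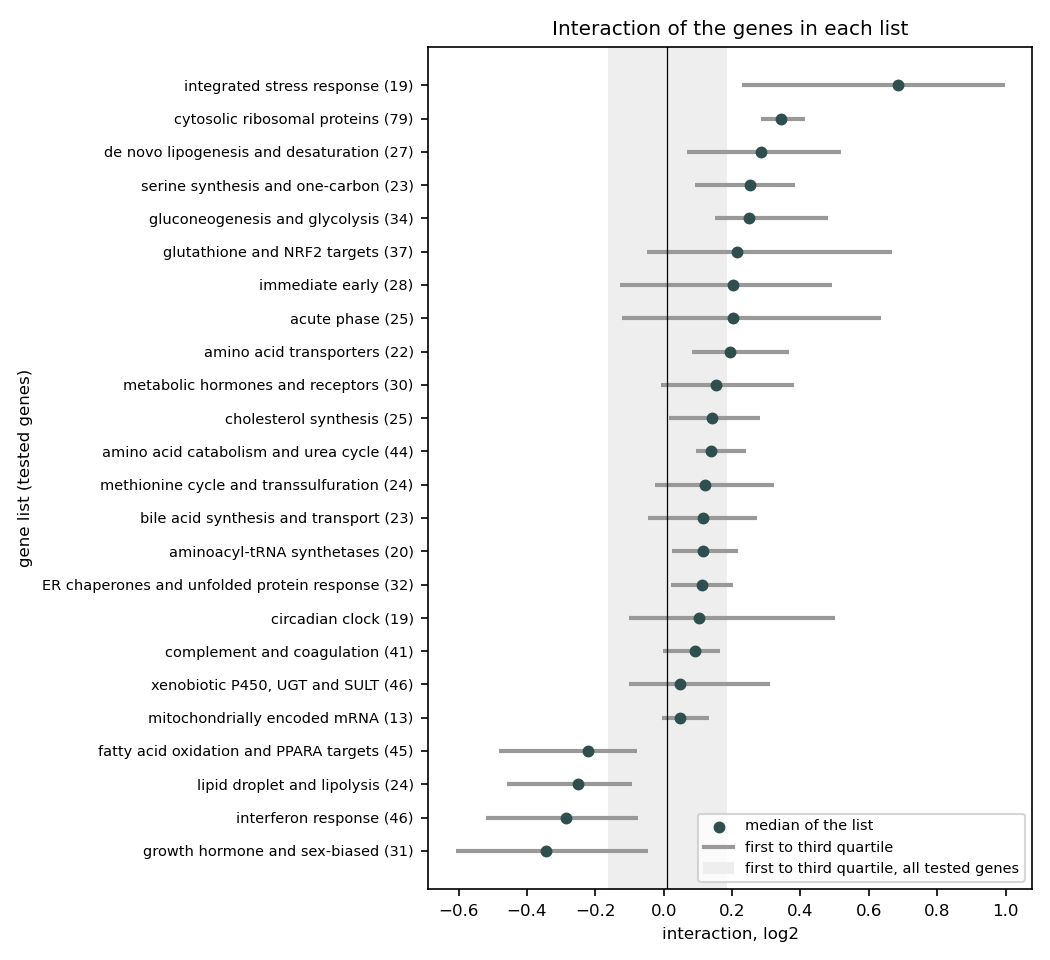
Median interaction (point) and lower to upper quartile (bar) on a log2 scale for 24 gene lists, with the number of tested genes in brackets. The grey band is the lower to upper quartile of all tested genes, -0.16 to 0.18, and the bars of the ISR and ribosomal protein lists lie wholly to its right.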

How the data were processed

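Poly(A)-selected liver RNA from 12 mice was sequenced in pairs. Per the study's methods the authors trimmed reads with cutadapt and quantified them with kallisto against an Ensembl mouse transcriptome, and the deposited files give, for 118489 transcripts a mouse, an estimated count, an effective length and a TPM. GEO's tags for diet and fat hold each other's values, and groups follow the values. Estimated counts of the 116816 transcripts matched to GENCODE M21 (GRCm38) were summed per gene and rounded. The rest held 0.704 to 1.797% of counts and were left out, and the deposited TPM values were not tested. The main test was edgeR 4.0.16 (TMM, filterByExpr by group, robust quasi-likelihood F-test, 1 coefficient per group), with Benjamini-Hochberg adjustment over all 14670 tested genes, 21377 not passing the filter. DESeq2 1.42.0, limma 3.58.1 and other settings were alternatives. The standard error is the log2 value over the square root of F. The code was tested on simulated data. The study's methods do not say whether strand was used in counting, so reads of antisense and overlapping genes may be mixed. Genes were named by rule: the 15 protein-coding genes of smallest p in each direction with a mean of at least 1 CPM and outside the acinar list, the whole ISR list, up to 3 per other list, the 6 of smallest p for the mean diet effect, and Scd1. Some genes that the rule names are not reported here. Members and lists were chosen with earlier results of these data known.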

Additional observations from a re-analysis of the deposited data

Results flagged for a closer look

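The interaction of Cyp39a1, 1.22, stood out because its response to restriction differed between the fat levels by a test of the difference itself (edgeR adjusted p = 0.0106). Restricted mice were above their controls in 3 of 3 mice on each fat. Groups of 3 mice are too small for the search for single outlying mice, which was not made.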

How the results depend on the processing

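No paired analysis was possible because GEO's labels give no replicate numbers, and those used here only name mice. All 23 alternatives, 12 of them leaving out 1 mouse, were run, and 111 of 127 named genes kept the sign of their interaction in each of the 20 to 22 that gave them a value. The causes of the changes below were not tested. Counts of calls that moved were these. Effective length offsets gave interaction up 0. DESeq2 gave interaction up 12, interaction down 4, RF restriction up 262, RF restriction down 329, HF restriction up 316, HF restriction down 279, fat in restricted mice up 54, fat in restricted mice down 31, fat in controls up 5, fat in controls down 26, sum of fat effects up 73, sum of fat effects down 49. Testing single transcripts gave interaction up 0, RF restriction up 24, RF restriction down 29, HF restriction up 62, HF restriction down 65, fat in restricted mice up 0, fat in restricted mice down 1, mean restriction up 233, mean restriction down 298, sum of fat effects up 0, sum of fat effects down 2, interaction at unadjusted p under 0.05 1232. Scaling by library size alone gave RF restriction up 359, RF restriction down 66, HF restriction up 639, HF restriction down 80, fat in restricted mice up 1, fat in controls down 1, mean restriction up 2175, mean restriction down 274, sum of fat effects up 1, sum of fat effects down 7. Leaving out the 5 mice above 1000 acinar CPM gave RF restriction up 25, RF restriction down 56, HF restriction up 5, HF restriction down 1, fat in restricted mice up 0, fat in restricted mice down 0, mean restriction up 95, mean restriction down 139, sum of fat effects up 0, sum of fat effects down 0. Testing without a filter gave fat in restricted mice up 9, fat in controls down 3, sum of fat effects up 5, sum of fat effects down 13. The acinar covariate gave fat in restricted mice up 0, fat in restricted mice down 2, fat in controls down 1, sum of fat effects up 0, sum of fat effects down 0. Estimation without robust weights gave fat in controls down 1, sum of fat effects up 1. Limma-voom gave sum of fat effects up 1. Leaving out 1 mouse, counts ranged over interaction up 0 to 2, RF restriction up 32 to 97, RF restriction down 55 to 147, HF restriction up 55 to 155, HF restriction down 48 to 155, fat in restricted mice up 0 to 4, fat in restricted mice down 1 to 4, fat in controls down 0 to 2, mean restriction up 279 to 456, mean restriction down 361 to 514, sum of fat effects up 0 to 4, sum of fat effects down 0 to 8. List medians moved as follows. The acinar covariate gave integrated stress response 0.24, gluconeogenesis and glycolysis 0.19. Effective length offsets gave amino acid transporters 0.32. Leaving out the 5 mice above 1000 acinar CPM gave glutathione and NRF2 targets 0.019, fatty acid oxidation and PPARA targets -0.37, bile acid synthesis and transport 0.024, xenobiotic P450, UGT and SULT -0.049, complement and coagulation 0.15, circadian clock -0.21, gluconeogenesis and glycolysis 0.15. Testing without a filter gave growth hormone and sex-biased -0.25. DESeq2 gave growth hormone and sex-biased -0.20. Leaving out 1 mouse gave integrated stress response 0.071 to 0.78, serine synthesis and one-carbon 0.15 to 0.29, aminoacyl-tRNA synthetases -0.025 to 0.19, methionine cycle and transsulfuration 0.030 to 0.23, glutathione and NRF2 targets 0.11 to 0.36, fatty acid oxidation and PPARA targets -0.33 to -0.16, bile acid synthesis and transport 0.012 to 0.15, growth hormone and sex-biased -0.45 to -0.22, immediate early -0.11 to 0.43, gluconeogenesis and glycolysis 0.19 to 0.29, amino acid catabolism and urea cycle 0.071 to 0.25, metabolic hormones and receptors 0.056 to 0.22. Interactions of single genes that changed sign, none called, were these. Leaving out the 5 mice above 1000 acinar CPM gave Cd79b -0.67, Per2 -0.14, Krt19 -0.46, Atf4 -0.12, Col1a1 0.46, Tfrc 0.12, Cebpg -0.14, Gadd45b 0.56. The acinar covariate gave Nupr1 -0.041, Cebpg -0.000282, Nfe2l2 0.060. Scaling by library size alone gave Gadd45b 0.0033. Limma-voom gave Gadd45b 0.20. Leaving out 1 mouse gave Cd79b -0.10 to 1.84, Krt19 -0.37 to 1.28, Fos -0.50 to 2.07, Cfd -2.21 to 0.39, Col1a1 -0.96 to 0.28, Cars -0.20 to 0.64, Nupr1 -0.44 to 2.21, Jun -0.082 to 0.93, Ddit3 -0.23 to 0.095, Nfe2l2 -0.21 to 0.17, Gdf15 -0.65 to 1.19, Gadd45b -0.37 to 0.56.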

Other observations

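Amino acid genes outside the ISR list leaned to positive interactions of small size. Amino acid catabolism and urea cycle genes were 41 of 44 positive (median 0.14, from 0.071 without RF.SAAR 3 to 0.25 without RF.SAAR 2), with Ftcd at 0.30 (SE 0.14) and Bcat2 at 0.33 (SE 0.17). Transfer RNA synthetases were 16 of 20 positive (median 0.12, from -0.025 without HF.SAAR 3 to 0.19 without HF.SAAR 2), with Gars at 0.39 (SE 0.21) and Lars at 0.32 (SE 0.20). Transporters of amino acids were 19 of 22 positive (median 0.19, from 0.12 without RF.SAAR 2 to 0.28 without RF.Ctrl 2), and Slc3a2, the shared heavy chain, was at 0.34 (SE 0.20). Slc43a1 fell on both fats, to 0.279 and 0.382 of the control level, with an interaction of 0.46 (SE 0.32). In the methionine cycle and transsulfuration list, 16 of 24 positive (median 0.12, from 0.030 without RF.SAAR 3 to 0.23 without RF.SAAR 2), Mat1a, the liver enzyme that makes S-adenosylmethionine, rose 1.84-fold on high fat (edgeR adjusted p = 0.00149) and was 1.34-fold on regular fat (0.107), with an interaction of 0.46 (SE 0.17). The other methionine adenosyltransferase gene, Mat2a, had the opposite sign at -0.31 (SE 0.14), and Pemt was at 0.36 (SE 0.16).

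Acute-phase genes were 17 of 25 positive (median 0.20, from 0.11 without RF.SAAR 3 to 0.27 without RF.SAAR 1). Lcn2, an iron-binding protein of the acute phase, was at 4.81, 2.66 and 2.43 CPM in the RF.Ctrl mice, 2.398, 1.38 and 2.62 in the RF.SAAR mice, 4.03, 2.61 and 3.41 in the HF.Ctrl mice and 9.87, 10.1 and 4.57 in the HF.SAAR mice, so that HF.SAAR mice overlapped the RF.Ctrl mice and lay above the rest, and its interaction was 1.92 (SE 0.51, 95% interval 0.82 to 3.01, edgeR unadjusted p = 0.00227, adjusted p = 0.999). Apcs was at 0.64 (SE 0.26) and Orm3 at 2.02 (SE 0.83). Immediate early genes were 17 of 28 positive (median 0.20, from -0.11 without HF.SAAR 3 to 0.43 without HF.SAAR 1), with Fosl2 at -0.77 (SE 0.32) and Klf6 at 0.59 (SE 0.26). ER chaperones were 24 of 32 positive (median 0.11, from 0.0089 without RF.Ctrl 2 to 0.22 without RF.SAAR 3), with Pdia6 at 0.38 (SE 0.14), P4hb at 0.25 (SE 0.14) and Calr at 0.27 (SE 0.15). Clock genes were 12 of 19 positive (median 0.10, from 0.021 without HF.Ctrl 2 to 0.28 without RF.SAAR 3), among them Nfil3 at -0.64 (SE 0.29), Clock at -0.39 (SE 0.25) and Per2 at 0.64 (SE 0.44). Metabolic hormones and receptors were 22 of 30 positive (median 0.15, from 0.056 without HF.SAAR 2 to 0.22 without HF.SAAR 1), with Ahsg at 0.34 (SE 0.17). Cholesterol synthesis genes were 19 of 25 positive (median 0.14, from 0.00555 without RF.Ctrl 3 to 0.23 without HF.SAAR 1), with Stard4 at 0.64 (SE 0.24), Fdft1 at 0.46 (SE 0.19) and Sqle at 0.60 (SE 0.34). Mitochondrially encoded mRNAs were 9 of 13 positive (median 0.047, from -0.037 without HF.SAAR 2 to 0.13 without RF.SAAR 2), from -0.18 (SE 0.21) for mt-Atp8 to 0.60 (SE 0.32) for mt-Nd3, with mt-Co3 at 0.41 (SE 0.25). In the complement list Kng1 was at 0.30 (SE 0.12), and among lipid droplet genes Ces3a was at -0.32 (SE 0.10) and Cidec at -0.94 (SE 0.51).

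Markers of cells other than hepatocytes were summed as well, and their part in the results was not tested. Kupffer cell and macrophage markers were 12 of 12 positive (median 0.32, from 0.15 without HF.SAAR 2 to 0.52 without HF.Ctrl 2). At an unadjusted p under 0.05 there were 3, all positive (1.83% of all tested genes were). These were Adgre1 at 0.52 (SE 0.19), Marco at 2.07 (SE 0.82) and Timd4 at 0.76 (SE 0.32). The summed level of the list was 493 to 595 CPM in the RF.Ctrl mice, 468 to 559 in the RF.SAAR mice, 448 to 588 in the HF.Ctrl mice and 488 to 699 in the HF.SAAR mice. Skeletal muscle markers were 2 of 10 positive (median -0.48, from -0.88 without RF.Ctrl 3 to 0.19 without RF.SAAR 3), with Pvalb at -1.28 (SE 0.46), Actn3 at -0.72 (SE 0.27) and Myh4 at -1.55 (SE 0.57), and summed to 273 to 644, 351 to 1005, 320.3 to 685 and 310.3 to 773 CPM in the same order. Neutrophil and erythroid markers were 6 of 7 positive (median 0.69, from 0.26 without HF.SAAR 2 to 0.97 without HF.SAAR 3), with Hba-a1 at 0.81 (SE 0.33), Hbb-bs at 0.76 (SE 0.37) and Alas2 at -0.42 (SE 0.18). Markers of liver endothelium were 6 of 9 positive (median 0.028, from -0.027 without RF.Ctrl 2 to 0.10 without RF.SAAR 2), of stellate cells 4 of 10 positive (median -0.087, from -0.18 without RF.SAAR 2 to 0.27 without HF.Ctrl 2), of cholangiocytes 4 of 6 positive (median 0.38, from -0.20 without RF.Ctrl 1 to 0.66 without RF.Ctrl 2), of lymphocytes 6 of 11 positive (median 0.58, from -0.62 without HF.SAAR 3 to 1.05 without RF.SAAR 1), of adipocytes 1 of 6 positive (median -0.89, from -1.16 without HF.SAAR 3 to 0.22 without RF.SAAR 3) and of hepatocytes 6 of 10 positive (median 0.19, from 0.12 without HF.SAAR 2 to 0.25 without HF.SAAR 3). The lists for other cells did not hold a gene with an adjusted p under 0.05 for the interaction.

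The range after each median is over the 12 ways of leaving out 1 mouse, named by group and number. Without the 5 mice of high acinar transcripts the marker medians were -0.85 for lymphocytes, -0.46 for cholangiocytes and 0.12 for stellate cells, of opposite sign to those with all mice, and -0.35 for adipocytes, -0.15 for muscle, 0.21 for Kupffer cells and 0.40 for hepatocytes. The gene list medians were then 0.21 for ER chaperones, 0.22 for the methionine cycle, 0.15 for complement, and, with the opposite sign, -0.21 for the clock and -0.00853 for mitochondrial mRNA. With the acinar covariate the medians were -0.012 for immediate early genes, -0.12 for lymphocyte markers and -0.00563 for cholangiocyte markers, each of opposite sign.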
